A study of Mus musculus with 4 samples.

Results

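Respiratory complex I, the NADH:ubiquinone oxidoreductase of the inner mitochondrial membrane, is represented here by the nuclear genes whose symbols start with Nduf. The genes were taken by symbol alone, leaving out 3 pseudogenes marked -ps, which gave 51 of the 55359 genes in the deposited table. RNA was measured in 4 libraries of mouse cells grown from ovary and labelled as female germline stem cells, in MEM-alpha with serum and mouse growth factors (GDNF, LIF, EGF and bFGF). The design sets cells given celastrol, a plant triterpenoid, for 12 h against control cells, in triplicate, but the 4 libraries listed carry no label that says which of them received it. Library 01, library 02, library 21 and library 22 are therefore given one by one, in that order throughout, without groups, replicate error or any test of treatment, and whether they came from separate cultures is not stated. Each value is the level of RNA in a whole culture, in which fewer cells of a type and less RNA per cell cannot be told apart.

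Complex I has a matrix arm and a membrane arm. In the matrix arm the NADH-oxidising (N) module takes electrons from NADH through a flavin and a chain of iron-sulfur clusters, and the quinone-reducing (Q) module hands them to ubiquinone, while the membrane arm pumps protons. Its membrane core is encoded in mitochondrial DNA and the rest in the nucleus, as core subunits, as accessory subunits that surround them and as assembly factors that leave the finished complex.

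Totals ran from 12339636 to 13039541 counts per library, and 11854 to 11978 genes reached 1 FPKM (fragments per kilobase of exonic length, scaled to library depth), the level called detected. In counts of all genes, libraries 01 and 02 differed less from each other (mean chi-square per gene 3.21, where sampling noise alone gives about 1) and so did libraries 21 and 22 (3.03) than any other pair (18.2 to 19.6). Most germ cell markers were at or near 0: 10 of 12 stayed under 1 FPKM in every library and 6 had no count, with Ddx4 at 0, 2, 0 and 0 counts. Ifitm3, which many cell types express, and Piwil2, a piRNA pathway gene, were the exceptions, and the summed level of the germ cell list was 272 to 279 FPKM. Among markers of other cell types, the summed mast cell and macrophage lists differed most over the same libraries. The mast cell list, with 10 of 11 markers found by symbol, summed to 565, 555, 462 and 482 FPKM. Of the 10, 7 were under 1 FPKM in every library, with Fcer1a, Tpsb2 and Mcpt4 at 0. Of the 3 genes that carried the sum, Cpa3 (333, 325, 229 and 247 FPKM) and Gata2 (173, 165, 131 and 135 FPKM) were lower in libraries 21 and 22, and Kit (58.9, 64.6, 100.7 and 100.3 FPKM) was higher. The macrophage list summed to 268, 270.4, 123 and 122 FPKM, most of it from Adgre1, while C1qa and C1qb had no count and Csf1r stayed at 0.08 to 0.15 FPKM. Not all its markers followed the sum. The median over the 10 markers was 0.385, 0.36, 0.80 and 0.605 FPKM, higher in libraries 21 and 22, and 5 of the 10 stayed under 1 FPKM in every library. Fibroblast and feeder cell markers, led by Col1a1, Dcn and Col1a2, differed less, with sums of 87.45, 88.97, 81.63 and 83.52 FPKM. Of 8 granulosa cell markers Inhba alone reached 1 FPKM, in every library. The part of these markers in the complex I values was not tested.

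Nearly the whole nuclear gene set of complex I was transcribed in these cells. Of the 51 genes, 47 were at 1 FPKM or more in each of the 4 libraries, at medians of 1.97 to 109 FPKM. The lowest of the 47, Ndufb4c, is identical to Ndufb4 over its length, so its reads are not shown to be its own. The other 4 of the 51 stayed under 1 FPKM in every library, and all 4 are paralogs or copies of other Nduf genes. Ndufa4l2, a paralog of Ndufa4, had 3, 1, 8 and 0 counts. Ndufs6b, a copy of Ndufs6, had 1, 1, 0 and 0 counts, and Ndufa11b and Ndufb11b had none, where 3 counts equal at most 0.573 FPKM of Ndufa11b and 0.237 FPKM of Ndufb11b. Together the 51 genes summed to 1979.8, 1881, 2145 and 2107 FPKM. Their counts made up 0.324% (Wilson 95% interval 0.321 to 0.328%), 0.308% (0.305 to 0.311%), 0.354% (0.350 to 0.357%) and 0.349% (0.346 to 0.352%) of all counts. Sum and share were both highest in library 21 and lowest in library 02, and the intervals of the shares in libraries 21 and 22 overlapped while those of libraries 01 and 02 did not. Intervals and floors cover counting error only.

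**Figure D1:**
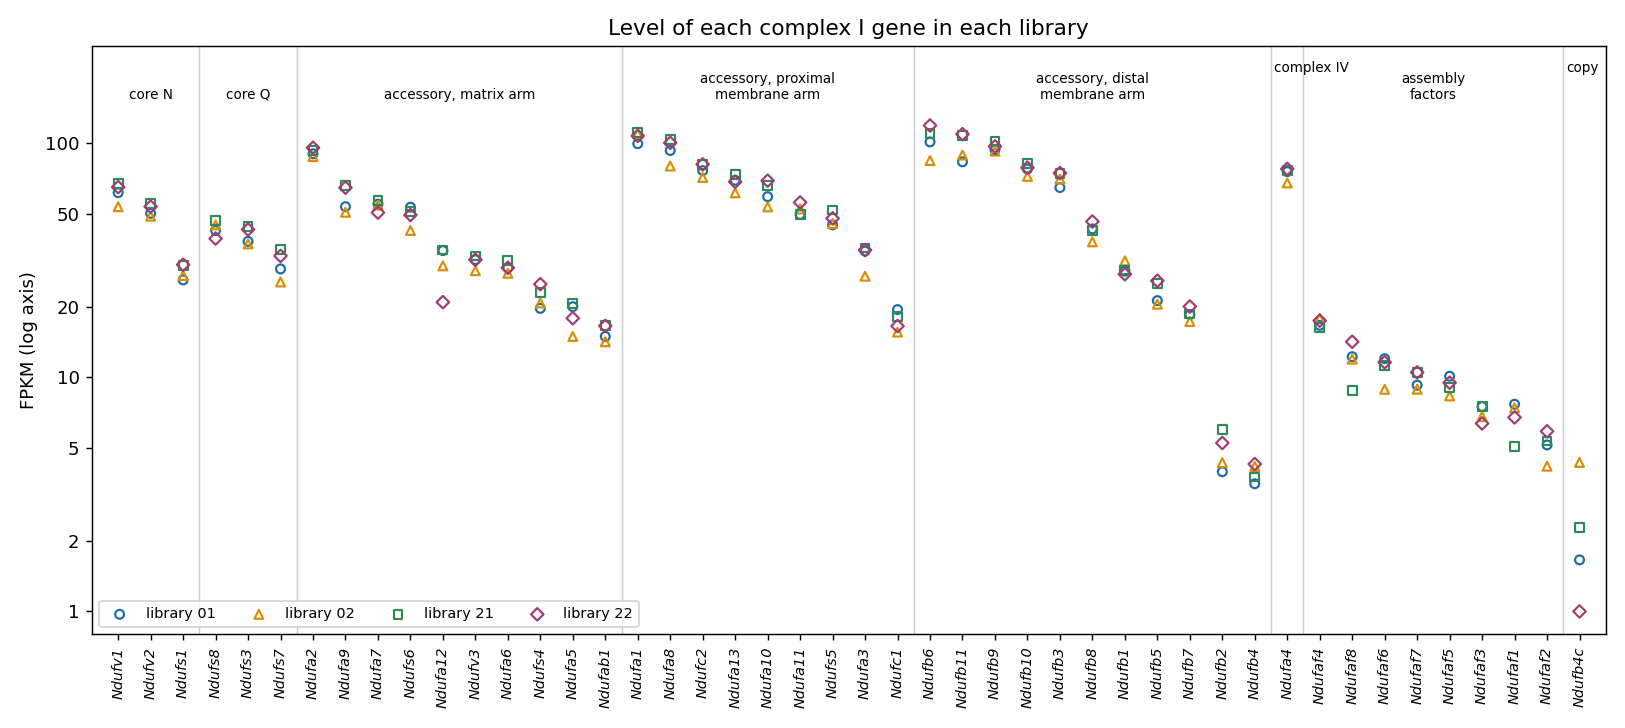
FPKM (vertical log axis) of 46 complex I genes whose mean reached 1 FPKM, each marker being 1 library, grouped by role and ordered by median within a role. Assembly factors lie at medians of 5.24 to 17.1 FPKM, under most subunits, and Ndufa12 in library 22 stands apart from its other libraries.

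Core subunits of the N module were at 28.6 to 63.1 FPKM (median of the 4 libraries). Ndufv1, which binds the flavin and NADH, was at 61.4, 53.5, 67.3 and 64.9 FPKM. Ndufv2, an iron-sulfur partner of Ndufv1, was at 50.1, 48.8, 55.2 and 53.5 FPKM, and Ndufs1, which holds several of the clusters, at 26.04, 27.2, 29.96 and 30.2 FPKM. In all 3 genes libraries 21 and 22 were both above libraries 01 and 02. Ndufs1 overlaps Eef1b2, a gene on the opposite strand with more counts, and reads in the overlap are not shown to be told apart.

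Core subunits of the Q module that are described here had medians of 31.0 to 43.5 FPKM. Ndufs3 was at 38.1, 37.1, 44.2 and 42.8 FPKM, and Ndufs7, which carries the last cluster before the quinone, at 29.0, 25.5, 35.2 and 32.98 FPKM. Ndufs7 varied most among the 6 core genes named here, by a log2 range of 0.45. The log2 range is the log2(FPKM + 1) of the highest library minus that of the lowest, and the pseudocount of 1 makes it smaller for low genes. Ndufs8, another iron-sulfur subunit, was at 42.3, 44.7, 46.8 and 39.1 FPKM and was the only one of these 6 whose lowest library was 22. Exact Poisson 95% intervals of the lowest and the highest library were separate in all 6, against 56.9% of all genes whose mean reached 1 FPKM.

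Accessory subunits of the matrix arm had medians of 15.8 to 91.6 FPKM. Ndufa2, an N-module subunit with a thioredoxin-like fold, was at 89.97, 87.6, 93.1 and 95.5 FPKM (log2 range 0.12). Ndufa9, which binds NADPH beside the Q module, was at 53.5, 50.7, 65.9 and 64.5 FPKM, and Ndufa7 at 54.9, 54.3, 57.01 and 50.5 FPKM. Ndufs6, a zinc-binding subunit, was highest in library 01, at 53.2, 42.4, 50.97 and 49.3 FPKM. The lowest levels in this arm were those of Ndufs4 (19.7, 20.8, 23.04 and 24.97 FPKM), Ndufa5 (20.0, 14.9, 20.7 and 17.9 FPKM) and Ndufab1, the mitochondrial acyl carrier protein (14.9, 14.2, 16.6 and 16.6 FPKM). Library 02 was lowest for Ndufa5 and Ndufab1 but not for Ndufs4, whose lowest library was 01. Ndufv3 and Ndufa6 were at medians of 31.8 and 29.4 FPKM, and their log2 ranges were 0.20 and 0.18.

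In the proximal membrane arm Ndufa1, a small subunit of that arm encoded on the X chromosome, had the highest median of all 51 genes, at 99.4, 109.8, 110.6 and 107 FPKM. Ndufa8, on the intermembrane-space side, followed at 92.99, 79.8, 103 and 100.2 FPKM, and Ndufc2 at 76.3, 71.3, 80.8 and 81.1 FPKM. Libraries 21 and 22 were the highest for Ndufa8 and Ndufc2, whereas for Ndufa1 library 01 was lowest, with a Poisson interval that overlapped that of its highest library. Ndufa10, which has a nucleoside kinase fold, was at 59.1, 53.4, 66.2 and 69.1 FPKM. The lowest members were Ndufs5 (44.8, 45.3, 51.8 and 47.7 FPKM), Ndufa3 (34.6, 27.01, 35.6 and 34.95 FPKM) and Ndufc1 (19.5, 15.6, 18.2 and 16.6 FPKM). Ndufa3 was thus alike in libraries 01, 21 and 22 and low in library 02. Ndufa13, also known as GRIM-19, and Ndufa11 had medians of 68.9 and 50.96 FPKM.

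The distal membrane arm held both high and low genes. Ndufb6 was at 101, 84.3, 110.4 and 119 FPKM, Ndufb11 at 83.2, 88.9, 108 and 109 FPKM, and Ndufb9, which has an LYR motif, at 93.6, 92.4, 102 and 96.8 FPKM. The first 2 of these differed more between libraries (log2 ranges of 0.49 and 0.39) than Ndufb9 (0.14). Ndufb10, Ndufb3, Ndufb8 and Ndufb1 had medians between 28.6 and 78.0 FPKM and log2 ranges of 0.18 to 0.28. Ndufb5 was at 21.3, 20.5, 25.2 and 25.8 FPKM and Ndufb7 at 18.5, 17.3, 18.6 and 20.1 FPKM, both lowest in library 02 and highest in library 22. At the low end, Ndufb2 was at 3.95, 4.32, 6 and 5.24 FPKM and Ndufb4 at 3.51, 4.16, 3.75 and 4.26 FPKM. These low levels per length rest on different gene sizes: the deposited exonic size of Ndufb2 is 5628 bases, against 1916 bases for Ndufb4 and 659 bases for Ndufb6. Across the 47 genes, Spearman's rho between exonic size and median FPKM was -0.42, and between size and median count 0.40, as a description of genes that share the same libraries. Their median FPKM spanned 55.1-fold, from Ndufa1 down to Ndufb4c. The low end rests on 8, 22, 11 and 5 counts that cannot be told from Ndufb4 by sequence, and the next lowest median was 3.96 FPKM (Ndufb4).

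Assembly factors were transcribed at lower levels than most subunits, at medians of 5.24 to 17.1 FPKM. Ndufaf4 was at 16.7, 17.8, 16.3 and 17.5 FPKM and Ndufaf3, with which it acts early on the Q module, at 7.5, 6.80, 7.52 and 6.35 FPKM. Ndufaf5, which hydroxylates an arginine of Ndufs7, was at 10.1, 8.32, 9.02 and 9.48 FPKM, and its partner Ndufaf8 at 12.2, 11.95, 8.81 and 14.2 FPKM. Library 21 was lowest for Ndufaf8, at 91 counts (Poisson 95% interval 7.09 to 10.8 FPKM), and library 22 highest, at 152 counts (12.0 to 16.6 FPKM). Ndufaf7, which methylates an arginine of a core subunit, was at 9.25, 8.89, 10.5 and 10.5 FPKM, and Ndufaf6 at 12.0, 8.88, 11.2 and 11.6 FPKM. Ndufaf1, a factor of membrane arm assembly, was at 7.67, 7.41, 5.06 and 6.74 FPKM, and Ndufaf2, a paralog of Ndufa12 that acts late, at 5.14, 4.17, 5.34 and 5.88 FPKM. Ndufaf1 was thus low in library 21, like Ndufaf8, while Ndufaf2 was low in library 02. Only 37.6% of the 100-base stretches of Ndufaf2 are unique to it, so its counts are uncertain. Ndufa4, which was named for complex I and placed in complex IV by later work, was at 75.6, 67.6, 76.2 and 77.6 FPKM.

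Most complex I genes differed by less than 0.5 on the log2 scale over the libraries. Their median log2 range was 0.25 (47 genes), beside 0.27 for all 11874 genes whose mean reached 1 FPKM and 0.23 for the 2447 genes with means of 20 to 100 FPKM. A log2 range of 0.5 or more was reached by 4 of the 47 (8.51%), against 17.3% of all genes and 8.70% of the genes at 20 to 100 FPKM. They were Ndufb4c (1.41), Ndufa12 (0.71), Ndufaf8 (0.63) and Ndufaf1 (0.52), and the next, just under the threshold, were Ndufb2 (0.50) and Ndufb6 (0.49). As deposited, without a build, Ndufb4c (ENSMUSG00000083380) lies on chromosome 15 at 73681356 to 73681745 on the minus strand, Ndufaf8 (ENSMUSG00000078572) on chromosome 11 at 119989754 to 119991531 on the plus strand and Ndufaf1 (ENSMUSG00000027305) on chromosome 2 at 119485927 to 119493308 on the minus strand. Separate libraries carried these ranges, and leaving out a library can only keep or lower a range. Without library 21 the range was 0.23 for Ndufaf8 and 0.16 for Ndufaf1, and the count of genes at 0.5 or more was 2. Without library 22 it was 0.22 for Ndufa12 and 0.43 for Ndufaf8, and the count was again 2. Without library 01 that of Ndufaf1 was 0.47. The range of Ndufb4c, which without library 02 was 0.71, rests on 8, 22, 11 and 5 counts. Poisson 95% intervals of the lowest and the highest library did not overlap for 32 of the 47 (68.1%), against 56.9% of all genes and 73.6% of the genes at 20 to 100 FPKM. Library 02 weighed most in both summaries: without it 17 genes had separate intervals and the median log2 range was 0.16. Values over all genes without a library were not computed, so these changes are not shown to be particular to complex I genes.

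**Figure D2:**
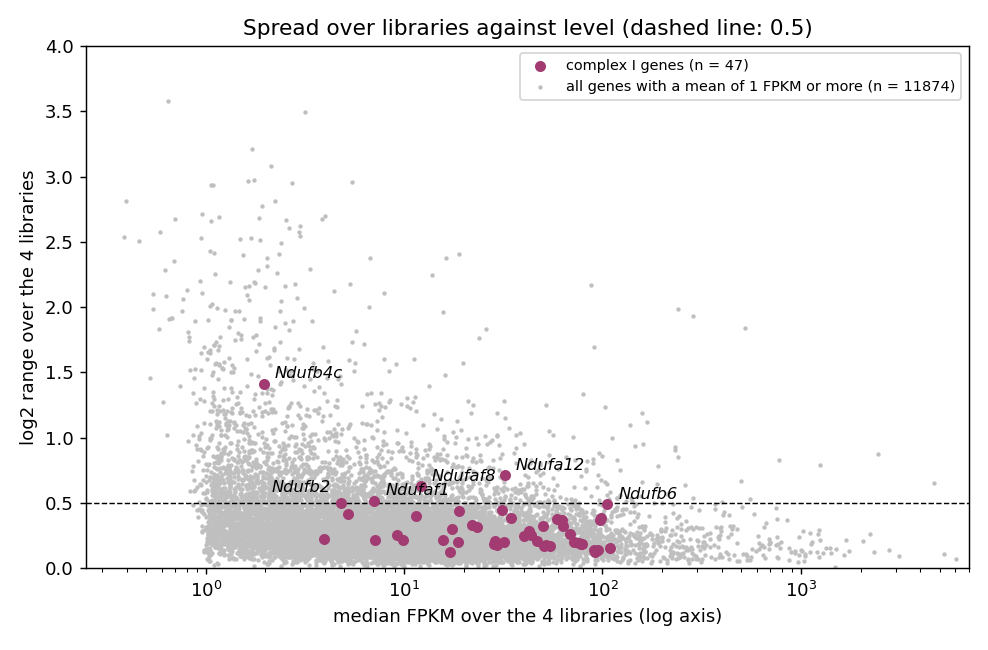
Log2 range over the 4 libraries (vertical axis) against the median FPKM (log axis) of the 47 complex I genes (large points) and of all 11874 genes whose mean reached 1 FPKM (small points). The dashed line marks 0.5, which Ndufb4c, Ndufa12, Ndufaf8 and Ndufaf1 pass, with Ndufb2 just under it.

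By median, the complex I genes were lowest in library 02 and highest in libraries 21 and 22, though not every gene had this order. The median deviation of a gene from its own mean over the libraries, on the log2(FPKM + 1) scale, was -0.02, -0.11, 0.08 and 0.07, whereas over all genes it lay between -0.002 and 0.003. Among the 29 genes that overlap no gene on the opposite strand it was -0.006, -0.10, 0.07 and 0.04. Library 21 was the highest library for 22 genes (46.8%) and library 22 for 17 (36.2%), against 5 for library 01 and 3 for library 02. Over all genes libraries 21 and 22 were highest for 23.9% and 24.9%, and at 20 to 100 FPKM for 29.3% and 30.1%. Library 02 was the lowest for 29 genes (61.7%), library 01 for 9, library 22 for 6 and library 21 for 3. Library 02 was lowest for 25.5% of all genes and for 35.3% of those at 20 to 100 FPKM. Libraries 21 and 22 were the 2 highest for 26 of the 47 genes (55.3%), beside 31.1% of all genes. Libraries 01 and 02 were the 2 highest for 1 gene, Ndufaf1 (2.13%), beside 30.9% of all genes. Genes at 20 to 100 FPKM, the range of many complex I genes, had median deviations of -0.02, -0.04, 0.03 and 0.03. Between libraries 02 and 21 the median absolute difference of a complex I gene was 0.20 on the log2(FPKM + 1) scale, beside 0.17 for all genes. Between libraries 21 and 22 it was 0.06, beside 0.08 for all genes. The same order held in the core N, core Q, matrix-arm accessory, proximal and distal groups, in each of which library 02 had the lowest and library 21 or library 22 the highest median deviation. Among assembly factors library 01 had the highest median deviation (0.07), with library 02 again lowest (-0.08).

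**Figure D3:**
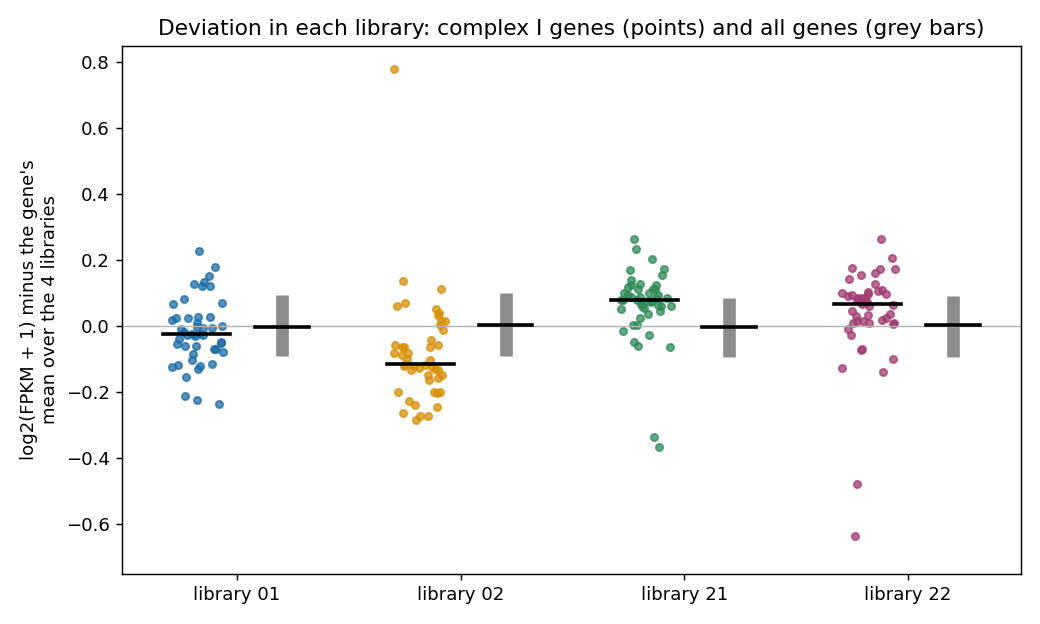
Deviation of log2(FPKM + 1) in each library from the gene's mean over the 4 libraries (vertical axis). Points are the 47 complex I genes with their median as a black line, and grey bars are the middle 50% of all genes with their median. The complex I medians are -0.02, -0.11, 0.08 and 0.07, and those of all genes lie near 0.

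Genes outside the set whose profile over the 4 libraries was nearest to the median complex I profile, among genes averaging at least 5 FPKM, were taken by the mean absolute difference of the log2 deviations. They were Fyttd1 (mean absolute difference 0.0039), an mRNA export adaptor, Khsrp (0.0056), an RNA-binding protein, Ube2b (0.0071), a ubiquitin-conjugating enzyme, Gpx1 (0.0075), a glutathione peroxidase, and Colgalt1 (0.0076), a collagen galactosyltransferase. Fyttd1 was at 17.95, 16.6, 19.3 and 19.1 FPKM. With 4 libraries many profiles can lie this close.

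Sequence before the starts of the genes was read because their median deviations set the libraries in an order, which not every gene had. RefSeq promoter windows (GRCm38.p6, 250 bases before to 50 bases after the start) were matched by symbol for 41 of the 51 genes, as 43 windows. The motif of NRF1, a transcription factor of nuclear genes for the respiratory chain, searched as GCGCA, any base, GCGC on both strands, was in 10 of the 43 windows (23.3%), beside 4.60% of all 32851 windows. The ETS motif bound by GABP, searched as CCGGAAG on both strands, was in 6 windows (14.0%), beside 8.86% of all. The YY1 motif, searched as AAGATGGCG on both strands, was in 6 windows (14.0%), beside 1.40% of all. The SP1 motif, searched as GGGCGG on both strands, was in 22 windows (51.2%), beside 35.7%. By gene, the NRF1 motif was in 9 of 41. Matches to different motifs can overlap, and a match is a description of letters and not a site. The windows of all genes were matched for neither level in these libraries nor base composition. An excess is therefore not shown to be particular to complex I genes. Stretches of 60 bases are shown for the 3 genes with an NRF1 match and the 2 with an ETS match that had the highest median FPKM among genes with the match wholly before the start. They are written 5′ to 3′ on the strand of the gene, with the motif in capitals, on either strand, and cover chr2:36049339-36049398 (minus strand), chr17:56717677-56717736 (plus), chr13:73328483-73328542 (minus), chr4:40279612-40279671 (minus) and chr2:90904722-90904781 (minus).
Ndufa8, NRF1: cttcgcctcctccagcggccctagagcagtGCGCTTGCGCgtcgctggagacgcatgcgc
Ndufa11, NRF1: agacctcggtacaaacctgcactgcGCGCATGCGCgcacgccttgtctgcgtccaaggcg
Ndufs6, NRF1: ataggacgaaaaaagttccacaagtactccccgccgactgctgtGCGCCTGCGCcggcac
Ndufb6, ETS: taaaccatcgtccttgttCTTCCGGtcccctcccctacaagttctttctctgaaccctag
Ndufs3, ETS: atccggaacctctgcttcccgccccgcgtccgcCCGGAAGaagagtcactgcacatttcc
Their genes did not share 1 profile: Ndufa8, Ndufb6, Ndufs3 and Ndufa11 were highest in library 21 or library 22, and Ndufs6 in library 01. Ndufa11 varied little, at 49.6, 52.3, 49.6 and 55.8 FPKM.

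Ndufa12, an accessory subunit at the junction of the N and Q modules, had the widest log2 range of the complex I genes above 5 FPKM and has a near-identical copy elsewhere in the genome. The gene (ENSMUSG00000020022, chromosome 10, 94034582 to 94057305 on the plus strand as deposited, with a build that is not given in the sources used here) had 673, 612, 679 and 422 counts, or 34.8, 29.9, 34.9 and 20.9 FPKM. Library 22 was low, with a Poisson 95% interval of 18.98 to 23.03 FPKM against 27.6 to 32.4 FPKM in library 02. The pseudogene Ndufa12-ps on chromosome 5 had 461, 435, 498 and 606 counts, its highest in library 22. Of the counts of both, 59.3%, 58.5%, 57.7% and 41.1% stood on Ndufa12. Scaled to library totals as CPM, the sum of both was 91.9, 80.3, 95.01 and 80.0 CPM, and with the counts of the copy added the log2 range of Ndufa12 was 0.24. In the GENCODE M21 annotation of GRCm38 the copy is a single block of 402 bases, 99.5% identical to the Ndufa12 transcript, with the substitutions A99G and T378C, the base of Ndufa12 first and positions counted from 1 at the first base of the copy. Both positions lie in the coding sequence of Ndufa12. The 60-base windows around them, shown because reads that cover neither position cannot be assigned by sequence within the copied block, are at chr10:94199968-94200027 and chr5:130188463-130188522 for the first and chr10:94220802-94220861 and chr5:130188737-130188796 for the second, all on the plus strand, with the differing base in capitals.
Ndufa12, first window: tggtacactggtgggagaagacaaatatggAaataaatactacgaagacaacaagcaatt
Ndufa12-ps, first window: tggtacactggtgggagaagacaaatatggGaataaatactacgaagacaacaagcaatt
Ndufa12, second window: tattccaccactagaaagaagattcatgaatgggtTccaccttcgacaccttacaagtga
Ndufa12-ps, second window: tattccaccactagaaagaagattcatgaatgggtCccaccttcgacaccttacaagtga
How the authors' counting divided reads between them was not tested.

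**Figure D4:**
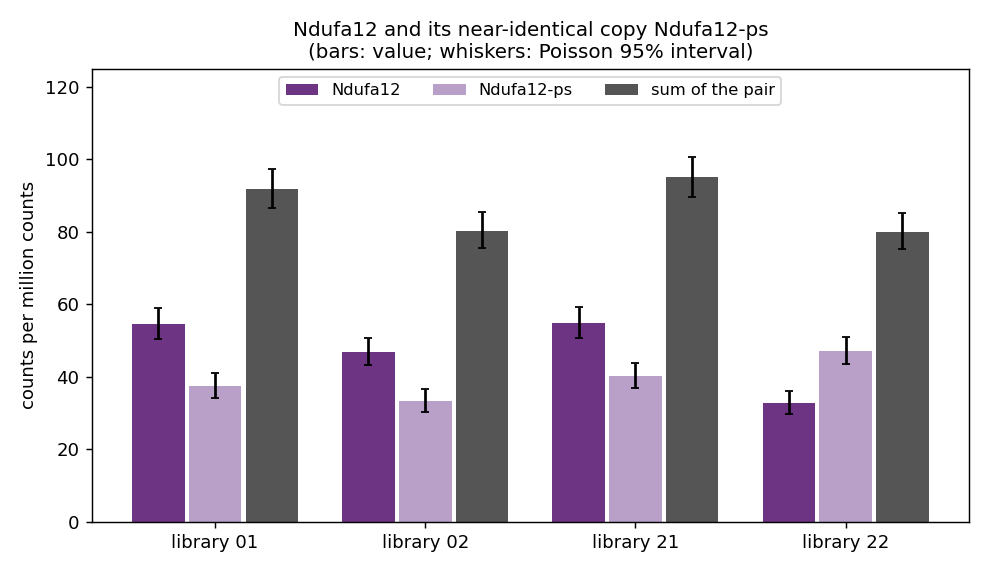
CPM, counts scaled to the library total (vertical axis, from 0), of Ndufa12, of Ndufa12-ps and of their sum in each library, with exact Poisson 95% intervals as whiskers. In library 22 Ndufa12 is lowest and Ndufa12-ps highest, at 32.8 and 47.2 CPM, and the sum is 80.0 CPM.

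Other complex I genes also share sequence or position with neighbours. In GENCODE M21, 32 of the 51 genes had every 100-base stretch unique among transcripts, 8 had under 90% unique and 2, Ndufaf2 and Ndufb4c, under 50%. Ndufb4c is identical to Ndufb4 over its 390 bases, so no read within it can be told from Ndufb4 by sequence. In the deposited coordinates 20 genes overlapped a gene on the opposite strand, and for 13 the neighbour had at least 10% of the gene's median count and 10 counts or more. No strand-keeping step is named in the labels, and whether the counting used strand is not stated, so reads in the overlaps are not shown to be told apart. Ndufb11, for example, had 932, 1053, 1210 and 1274 counts beside 931, 1087, 1339 and 1406 counts of Rbm10, which overlaps it. Ndufb2 had 274, 317, 418 and 379 counts beside 495, 585, 569 and 691 of Braf, and Ndufs6 had 590, 496, 567 and 569 beside 537, 519, 488 and 486 of Mrpl36. Ndufs1 had 2598, 2867, 3001 and 3142 counts beside 10867, 11160, 11859 and 12455 of Eef1b2. Median counts were 2204.5 for Impdh2 against 164.5 for Ndufaf3, and 2175 for Cpsf2 against 409 for Ndufb1. In counts, Rbm10 had the library order of Ndufb11 and Eef1b2 that of Ndufs1, while Braf and Mrpl36 did not share that of their neighbours. Ndufa4l2 overlaps Shmt2, which had 5686 to 6292 counts.

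The mitochondrially encoded subunits, which form the proton-pumping core of the membrane arm, did not all have the same library order. Median deviations of the 7 genes, of which 2 had few counts, were 0.03, -0.06, -0.06 and 0.07. Levels were far above the nuclear genes for mt-Nd1 (2737, 2659, 2809.7 and 2923 FPKM), mt-Nd2 (1213, 1184, 1273 and 1374 FPKM) and mt-Nd5 (1144, 1199, 994 and 1083 FPKM). In mt-Nd1 and mt-Nd2 library 02 was lowest and libraries 21 and 22 were highest, as for the median nuclear gene, whereas in mt-Nd5 library 02 was highest and library 21 lowest. Library 21 was also lowest in mt-Nd6 (859, 749, 661 and 759 FPKM). In mt-Nd4 (635, 595, 594 and 659 FPKM), with 39.2% of its stretches unique, it was lowest by little. The widest log2 ranges, of mt-Nd3 (1.17) and mt-Nd4l (0.70), rest on 14, 6, 8 and 4 and on 5, 11, 7 and 9 counts, and 2.41% and 1.52% of their stretches are unique to them.

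Assembly factors with other names were all transcribed, 13 of 13 found at 1 FPKM or more in every library, with median deviations of 0.04, 0.02, -0.05 and -0.02. Tmem70 and Dmac1, which act on the membrane arm, were at 41.2, 42.0, 37.9 and 39.5 FPKM and at 30.3, 30.3, 26.6 and 26.7 FPKM. Prdx3, a mitochondrial peroxiredoxin and no dedicated assembly factor, led the list at 118, 112, 105 and 103 FPKM. Chchd4, the intermembrane-space import oxidoreductase, alone had a log2 range over 0.5, at 13.4, 13.3, 9.81 and 8.83 FPKM. In these 4 genes libraries 21 and 22 were below libraries 01 and 02, but other genes of the list, chosen after their values were seen, went the other way. Acad9 was at 6.89, 6.27, 7.75 and 7.89 FPKM and Aifm1 at 19.6, 20.7, 21.2 and 23.3 FPKM.

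Nuclear subunits of complexes II to V were found by symbol for 38 of 52 listed genes, and the rest are not covered. Over these 38 the median deviations were -0.04, -0.13, 0.08 and 0.08, beside -0.02, -0.11, 0.08 and 0.07 for the complex I genes. The median log2 range of the 38 was 0.26. The ATP synthase genes Atp5b and Atp5a1 were at 408, 400.4, 500.4 and 497 FPKM and at 361, 349, 429 and 434 FPKM, and the cytochrome c oxidase gene Cox6a1 at 325, 303, 347 and 363 FPKM. Library 02 was the lowest in all 3, as for the median complex I gene. Uqcrb of complex III (38.4, 31.4, 35.2 and 60.4 FPKM) and Atp5g2 of ATP synthase (3.87, 2.38, 2.55 and 3.90 FPKM) had log2 ranges over 0.5.

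Regulators of mitochondrial gene expression were detected in every library for 11 of 13 genes, with median deviations of 0.03, 0.04, -0.004 and -0.02. Yy1 was at 22.9, 21.7, 23 and 22.4 FPKM, Gabpa, the ETS partner in GABP, at 18.4, 19.3, 16.5 and 18.95 FPKM, and Tfam, which packages mitochondrial DNA, at 16.6, 16.2, 17.97 and 18.4 FPKM. Log2 ranges of these 3 were 0.08 to 0.21. Tfb2m, a mitochondrial transcription factor, was at 4.74, 5.42, 3.57 and 2.94 FPKM (log2 range 0.70). The coactivator gene Ppargc1a, whose mean was under 1 FPKM, was at 1.30, 1.30, 0.80 and 0.57 FPKM. Both had lower levels in libraries 21 and 22 than in libraries 01 and 02, the reverse of the median complex I gene.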

How the data were processed

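The deposited table holds whole-number counts per gene and library, not normalised, per the file headers and the values, and FPKM computed by the authors. The count, FPKM and exonic size of genes returned each library's total within 0.05%. The submitters' processing notes name FastQC, HISAT2 and DESeq2 without version or role. Which counter, build and annotation release were used is not given in the sources used here. Poly(A) RNA was sequenced as paired-end reads, per the labels' protocols.

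Ranges and deviations were computed on log2(FPKM + 1) for genes averaging at least 1 FPKM, with Python 3.11.15, pandas 2.3.3 and scipy 1.17.1, and tested on simulated counts. edgeR 4.0.16 gave TMM factors for an alternative scaling only. Shares of counts carry Wilson intervals. The members and lists were chosen with earlier results of these data known. Named are the core genes, assembly factors and genes placed in complex IV, the 3 highest and 3 lowest per role, genes with a log2 range of 0.5 or more or with separate intervals and 0.3 or more, the 5 nearest profiles and, of each other list, the 3 highest and those at 0.5 or more. Of these, 1 gene is not reported here. Other genes were chosen after their values were seen, and marker genes were named without all their values. Since no library has a group, no comparison was tested.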

Additional observations from a re-analysis of the deposited data

Results flagged for a closer look

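Pseudogenes of complex I genes, which the report's set leaves out, had counts above the floor of 3 in every library. The median count was 479.5 for Ndufa12-ps, 190.5 for Ndufs5-ps and 27 for Ndufab1-ps. Each copy is over 99% identical to its parent gene, at 99.5% for Ndufa12-ps, 99.4% for Ndufs5-ps and 99.4% for Ndufab1-ps. Ndufs5-ps had 213, 184, 188 and 193 counts in libraries 01, 02, 21 and 22, beside 475, 508, 552 and 527 of Ndufs5. Ndufab1-ps had 21, 19, 33 and 47 counts, beside 1269, 1273, 1416 and 1466 of Ndufab1. Whether these reads came from the copies or from the parent genes was not tested.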

How the results depend on the processing

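The 4 genes with a log2 range of 0.5 or more became 20 at a threshold of 0.3 and 1 at a threshold of 1, and 2 among the 29 genes with every 100-base stretch unique, a subset chosen after seeing the data. Other pseudocounts, scalings and filters gave 3 to 6. Over all genes the share was 25.5% with a pseudocount of 0.1 FPKM and 17.3 to 17.5% under the other scalings. The 32 genes with separate intervals became 18 with 99% intervals. Leaving out 1 library at a time gave 2 to 4 genes at 0.5 or more, 17 to 31 with separate intervals and a median log2 range of 0.16 to 0.22. The log2 range of a gene can only stay or fall when a library is left out, so the direction of this change was fixed in advance. For other thresholds, other filters, 99% intervals and left-out libraries no share over all genes was computed. Without Ndufa1, the gene with the highest median, the summed levels were 1880.4, 1771, 2034 and 1999.8 FPKM. Of 377 alternative values of single genes, 365 stayed on the same side of 0.5, 6 went under it and 6 over it, namely Ndufb2 and Ndufb6 under other scalings or pseudocounts. Leave-one-out values of genes under 0.5 are among the 365 by construction, because leaving out a library cannot raise a range. The cause was not tested beyond what each alternative leaves out. Nuclear complex I genes detected in every library were 46 or 47 under each detection rule tried, and no median deviation of a library changed sign under the scalings, filters and subsets tried. Among the 29 genes without an opposite-strand neighbour, a subset also chosen after seeing the data, the median deviations were -0.006, -0.10, 0.07 and 0.04. No paired analysis was possible because the labels put no library in a group. Low counts limit Ndufb4c, Ndufs6b, Ndufa4l2, Ndufa11b and Ndufb11b.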
